A study of Homo sapiens with 6 samples.

Results

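This account covers 10 human genes that write, erase or read out the main silencing marks of chromatin: the DNA methyltransferase genes DNMT1, DNMT3A and DNMT3B, the methylcytosine dioxygenase genes TET1, TET2 and TET3, the methylation cofactor UHRF1, and EZH2, EED and SUZ12, the core of polycomb repressive complex 2 (PRC2). A probe belonged here if the platform annotation gave it 1 of these symbols, which held for 20 of the 48799 probes and 9 of the 10 genes. No probe carries the symbol TET3 in that annotation, so TET3 was not analysed here. Of the 20 probes, 13 exceeded background on 3 or more of the 6 arrays and were kept, and they represent 7 genes of the 11732 tested. Levels were measured on single-colour Illumina bead arrays in cells that the labels assign to SKOV3, a human line from an ovarian carcinoma. The 3 ip1 arrays hold the subline SKOV3-ip1, labelled as parental, and the 3 OM3 arrays hold SKOV3-OM3, labelled as metastatic; no treatment, time or added allele is given for either. Array numbers follow the order of the columns, whose names give the group and not the sample. The labels do not say that arrays of a group came from separate cultures, so p-values rest on a spread between arrays that may be technical only.

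The OM3 arrays went against part of their label. Of 8 genes that mark SKOV3 or ovarian epithelium, all were above background in ip1. KRT19, PAX8 and SOX17 were below it on all 3 OM3 arrays, and KRT7 was above it on 1. KRT8, KRT18, ERBB2 and EPCAM stayed above background on all 3 OM3 arrays. At a limma adjusted p under 0.05, 7 of the 8 were lower in OM3, against 25.9% of all genes. The other, the epithelial gene EPCAM, was higher (log2 fold change 0.97 ± 0.13, SE), as were 31.2% of all genes. CDKN2A, known to be deleted in SKOV3, went against the label too: all 3 OM3 arrays had it above background and no ip1 array did. Whether the cells on the OM3 arrays descend from SKOV3-ip1 was not tested, and a difference between unrelated cells cannot be told apart here from a change within 1 line, so ip1 and OM3 stand for the arrays labelled so throughout. The summed signal of the 8 markers was 42455 to 44834 in ip1 and 10118 to 11784 in OM3. Of 8 fibroblast markers, 2 were above background on some ip1 array and 6 on some OM3 array, with a summed signal of 933 to 1024 in ip1 and 4483 to 5575 in OM3. The summed signals of the mesothelial markers were 3333 to 3710 and 819 to 945, and those of the macrophage markers 2414 to 3330 and 1471 to 1586. Among the 4 macrophage markers tested, CD68 was lower in OM3 and 3 were not called. On some array, 4 of the 7 macrophage markers exceeded background in ip1 and 6 in OM3. Lymphocyte, endothelial and adipocyte markers had summed signals whose ranges overlapped between the groups, and PTPRC, CD3E, CD2, CDH5, VWF, CLDN5, FABP4, CSF1R and the fibroblast gene PDGFRB were below background on all 6 arrays. The part of these differences in the results that follow was not tested, and a change in cell makeup cannot be told apart from a change in RNA per cell in such samples. Over the genes tested, the correlation between arrays was 0.984 to 0.988 inside a group and 0.797 to 0.813 across groups.

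DNA methylation at CpG sites is laid down by DNMT3A and DNMT3B and copied after replication by DNMT1, which UHRF1 guides to half-methylated DNA. TET proteins oxidise methylcytosine and so start its removal. PRC2 methylates histone H3 at genes that are to stay silent: EZH2 is the catalytic subunit, EED binds the mark and stimulates EZH2, and SUZ12 holds the complex together. DNMT1, UHRF1 and EZH2 are known E2F targets that dividing cells express, and high EZH2 is common in ovarian carcinoma.

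Among the 7 measured genes, DNMT3B, EZH2 and SUZ12 were higher in OM3, none passed the test as lower, and DNMT1, DNMT3A, UHRF1 and EED did not pass. The comparison used limma across all genes tested, with Benjamini-Hochberg adjustment and a threshold of 0.05; at an unadjusted p under 0.05 the number lower was also 0. Over all genes 57.1% were called in either direction, 31.2% as higher and 25.9% as lower in OM3, so 3 of 7 (42.9%) is near the share of the whole array. The median size of the change was 0.30 for the 7 genes and 0.54 for all genes, both as absolute log2 fold changes. Counted by probe, 7 of the 13 kept probes were called, against 51.2% of all kept probes, and several of the 13 carry the same gene symbol. In the plot of single array values, ip1 and OM3 lie apart at the kept probes of the 3 genes that rose. They also lie apart at the brighter probe of UHRF1, which did not pass. In all, 4 of the 7 genes (57.1%) had groups without overlap, against 64.2% of all genes.

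**Figure D1:**
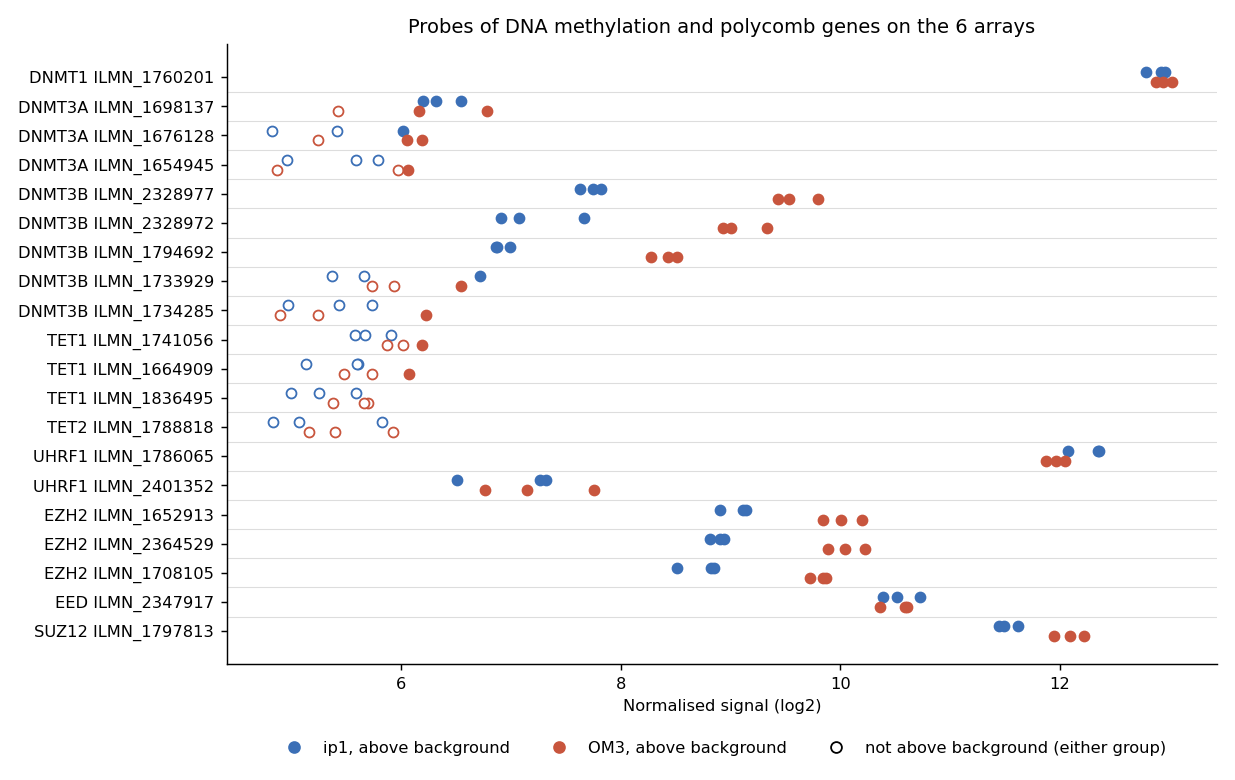
Normalised log2 signal (x axis) of the 20 probes of the methylation and polycomb genes on each array, ip1 in blue and OM3 in red; filled points were above the array's background and open points were not. The 3 upper DNMT3B probes, the 3 EZH2 probes and the SUZ12 probe have all OM3 points to the right of all ip1 points. The TET1 probes ILMN_1741056 and ILMN_1664909 each have 1 filled OM3 point, and all other TET1 and TET2 points are open.

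The maintenance genes were bright and differed little. DNMT1 had normalised log2 signals of 12.96, 12.78 and 12.92 on the ip1 arrays and 12.88, 12.93 and 13.02 on the OM3 arrays. These ranges overlapped, and the log2 fold change of OM3 over ip1 was 0.06 ± 0.13 (SE, n = 3 + 3, limma adjusted p = 0.724), with a 95% interval from -0.23 to 0.34. UHRF1 had log2 signals of 12.36, 12.07 and 12.35 in ip1 and 11.87, 12.04 and 11.96 in OM3 at its brighter probe. Its groups did not overlap, as held for 64.2% of all genes, but the log2 fold change of -0.30 ± 0.14 did not pass (limma adjusted p = 0.0931, interval -0.62 to 0.01). It passed as lower without background correction (adjusted p = 0.0400), with cyclic loess (0.0444), in the authors' value table (0.0308) and without array 2 of ip1 (0.0493), and averaged over both probes it was -0.056 (adjusted p = 0.832). The dimmer UHRF1 probe gave 0.19 ± 0.30 (adjusted p over all probes = 0.627), so the 2 probes differed in sign.

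DNMT3B showed the largest change of the 7 genes. Its brightest probe had log2 signals of 7.75, 7.82 and 7.63 on the ip1 arrays and 9.43, 9.80 and 9.53 on the OM3 arrays. Every OM3 value lay above every ip1 value, and the gene rose 3.62-fold, by 1.86 ± 0.14 on the log2 scale (SE, n = 3 + 3, limma adjusted p = 9.42e-06). This change was larger in size than that of 89.9% of the genes tested. The second kept probe (ILMN_2328972) went from 7.22 ± 0.40 to 9.09 ± 0.22 (SD) and the third (ILMN_1794692) from 6.91 ± 0.07 to 8.41 ± 0.12. Their log2 fold changes were 1.87 ± 0.22 and 1.50 ± 0.13 (SE), each past the test over all probes (adjusted p = 0.000160 and 3.26e-05). The other 2 DNMT3B probes were above background on 1 ip1 array and 1 OM3 array (ILMN_1733929) and on 1 OM3 array only (ILMN_1734285), and they were not tested.

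DNMT3A, the other de novo methyltransferase gene, was close to background in both groups. Its brightest probe had log2 signals of 6.55, 6.32 and 6.20 in ip1 and 6.16, 6.79 and 5.43 in OM3, where array 3 was below background. The ranges overlapped, and the log2 fold change of -0.23 ± 0.30 did not pass (limma adjusted p = 0.539, interval -0.92 to 0.46). Without OM3 array 3 it was 0.12, and the second kept probe, above background on 1 ip1 and 2 OM3 arrays, gave 0.41 ± 0.34 (adjusted p over all probes = 0.341).

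The TET genes were not measurable at this signal. The 3 TET1 probes had log2 signals of 5.00 to 5.91 on the ip1 arrays and 5.38 to 6.20 on the OM3 arrays. None was above background in ip1, 2 of them were above it on 1 OM3 array each, and 1 was below it on all 6 arrays. The single TET2 probe had 4.84, 5.08 and 5.82 in ip1 and 5.93, 5.40 and 5.16 in OM3, all below background. These probes give only a bound on the level, so no fold change is reported for TET1 or TET2.

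Within the PRC2 core, the catalytic subunit and the scaffold were higher in OM3 and the third subunit was not called. The brightest EZH2 probe had log2 signals of 9.15, 9.11 and 8.90 in ip1 and 10.20, 9.84 and 10.01 in OM3. The groups did not overlap, and EZH2 rose 1.95-fold, by 0.96 ± 0.15 on the log2 scale (SE, n = 3 + 3, limma adjusted p = 0.000552). Its other probes, ILMN_2364529 and ILMN_1708105, gave 1.16 ± 0.14 and 1.09 ± 0.15 (adjusted p over all probes = 0.000206 and 0.000361). SUZ12 had log2 signals of 11.45, 11.49 and 11.62 in ip1 and 12.09, 11.94 and 12.22 in OM3, again without overlap. It rose 1.48-fold, by 0.57 ± 0.13 (limma adjusted p = 0.00633). EED had 10.73, 10.39 and 10.52 in ip1 and 10.60, 10.59 and 10.36 in OM3, with overlapping ranges. Its log2 fold change was -0.03 ± 0.15 (limma adjusted p = 0.880, interval -0.36 to 0.30), and its sign turned with median centring (0.14), without ip1 array 1 (0.06) and without OM3 array 3 (0.05).

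Within each array, the log2 signal of EED was subtracted from that of EZH2 and, as a second pair, from that of SUZ12. The group mean of this difference was higher in OM3 than in ip1 by 0.99 for EZH2 and by 0.59 for SUZ12. These 2 pairs were chosen after the values were seen, so the differences are a description. In both pairs the groups did not overlap, which fixes the p of the exact two-sided permutation test at 0.10. This is the smallest value that 3 against 3 arrays allow, so the test adds nothing to the description. The plot of changes with their intervals sets all 13 kept probes side by side.

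**Figure D2:**
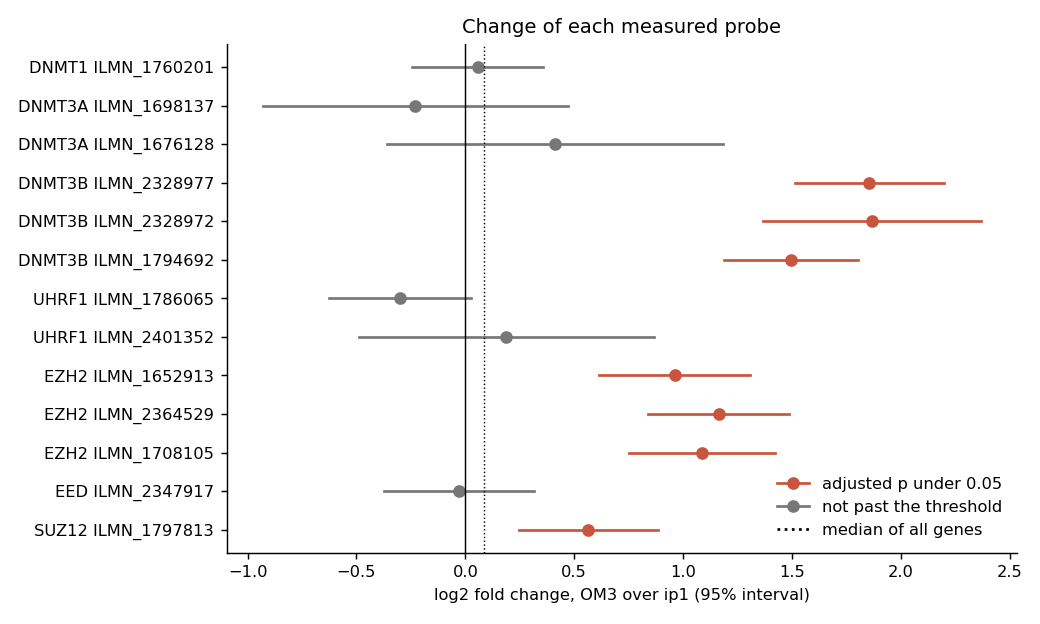
Log2 fold change of OM3 over ip1 (x axis) of the 13 kept probes, with 95% intervals from limma over all kept probes; red marks an adjusted p under 0.05, grey the rest, and the dotted line is the median of all genes tested, 0.09. The intervals of the 3 DNMT3B probes, the 3 EZH2 probes and the SUZ12 probe lie above 0, and those of the DNMT1, DNMT3A, UHRF1 and EED probes include 0.

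The scaling of the arrays bears on the smaller of these values. The median log2 fold change of all genes was 0.09, and cyclic loess moved it by -0.11, to -0.02. With cyclic loess DNMT3B was at 1.67, EZH2 at 0.81 and SUZ12 at 0.48, all still past the threshold (limma adjusted p = 1.90e-05, 0.00139 and 0.0123), while DNMT1 turned to -0.04. The plot against all genes places the 7 measured genes in the cloud of the 11732.

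**Figure D3:**
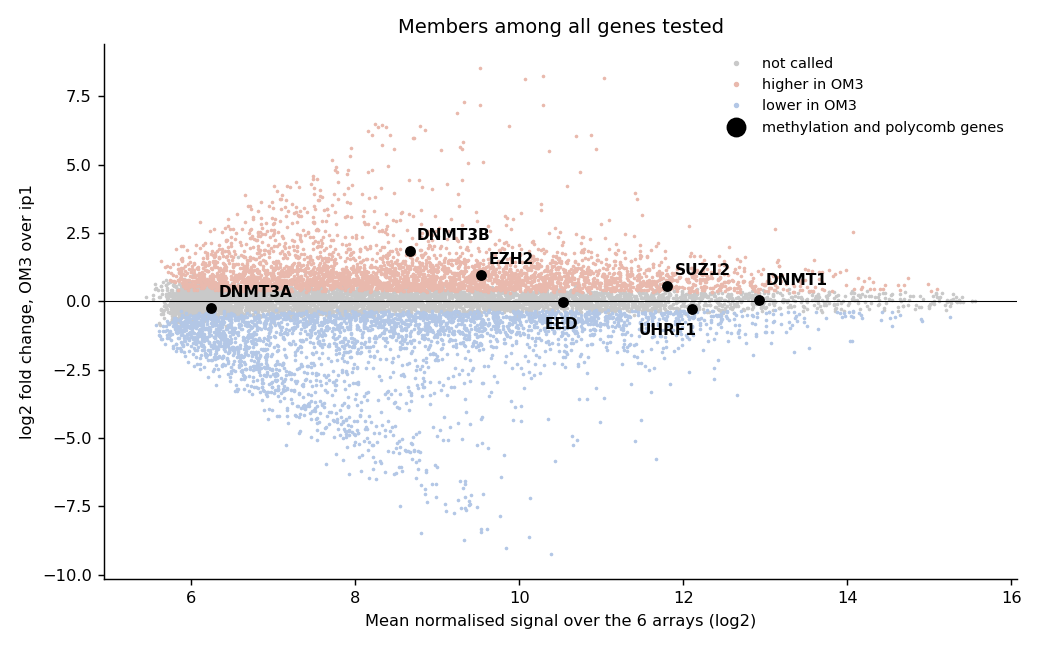
Log2 fold change of OM3 over ip1 (y axis) against the mean normalised log2 signal over the 6 arrays (x axis) for the 11732 genes tested; pink and pale blue genes were called higher and lower, and black points are the 7 measured methylation and polycomb genes. DNMT3B, EZH2 and SUZ12 lie at 1.86, 0.96 and 0.57, inside the range of the other called genes.

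The promoters of 4 of these genes are shown because EZH2 and SUZ12, which rose, and DNMT1 and UHRF1, which did not pass, hold the same kind of E2F-type motif. Each window runs from 250 bases before to 50 bases after a transcription start in RefSeq (GRCh38.p14), on the strand of the gene, and capitals mark the motif TTTNNCGC, in which both N are C or G, searched on both strands. The windows are chr7:148884242-148884541 (minus strand) for EZH2, chr17:31936757-31937056 (plus strand) for SUZ12, chr19:10194904-10195203 (minus strand) for DNMT1 and chr19:4909251-4909550 (plus strand) for UHRF1, whose start here lies 6421 bases inside the annotated gene.
EZH2: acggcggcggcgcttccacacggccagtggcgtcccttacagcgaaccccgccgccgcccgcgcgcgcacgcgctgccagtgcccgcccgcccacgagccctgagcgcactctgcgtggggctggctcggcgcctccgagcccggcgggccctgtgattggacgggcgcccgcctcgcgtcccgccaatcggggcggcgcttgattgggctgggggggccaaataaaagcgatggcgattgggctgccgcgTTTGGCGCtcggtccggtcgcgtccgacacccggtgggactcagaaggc
SUZ12: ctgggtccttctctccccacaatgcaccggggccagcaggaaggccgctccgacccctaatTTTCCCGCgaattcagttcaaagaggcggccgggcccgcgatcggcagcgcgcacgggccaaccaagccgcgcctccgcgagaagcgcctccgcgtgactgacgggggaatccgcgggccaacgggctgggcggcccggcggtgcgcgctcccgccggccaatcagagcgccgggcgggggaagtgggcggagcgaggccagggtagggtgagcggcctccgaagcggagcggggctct
DNMT1: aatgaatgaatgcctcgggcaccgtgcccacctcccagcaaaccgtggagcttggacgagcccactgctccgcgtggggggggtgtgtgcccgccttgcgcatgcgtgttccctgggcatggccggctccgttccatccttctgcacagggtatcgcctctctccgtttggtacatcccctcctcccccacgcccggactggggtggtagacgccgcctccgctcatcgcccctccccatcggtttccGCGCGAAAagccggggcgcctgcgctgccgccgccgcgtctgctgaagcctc
UHRF1: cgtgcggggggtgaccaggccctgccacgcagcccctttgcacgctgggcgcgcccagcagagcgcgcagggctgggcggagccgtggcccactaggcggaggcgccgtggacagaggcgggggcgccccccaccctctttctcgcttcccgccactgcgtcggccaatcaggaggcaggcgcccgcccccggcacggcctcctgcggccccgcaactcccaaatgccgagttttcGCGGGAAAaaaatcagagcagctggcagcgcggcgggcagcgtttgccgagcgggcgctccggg

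The motif was read as TTTGGCGC beginning at position 2 after the start in EZH2, as TTTCCCGC at position -189 in SUZ12, as TTTCGCGC on the other strand at position -2 in DNMT1, and as TTTCCCGC on the other strand at position -14 in UHRF1. A second UHRF1 window holds TTTCGCGC at position -160. In all, 5 of the 22 windows of the 10 genes and 4 of the 10 genes hold the motif, against 3.31% of all 35116 promoter windows and 6.71% of the 9578 tested genes that have a window. Promoters of genes called higher, lower and not called in OM3 held it in 4.79%, 4.19% and 5.45% of windows. CCAAT, read on both strands, was found in 4 places in the EZH2 window shown and once in the SUZ12 and UHRF1 windows, and 35.1% of the windows of tested genes hold it. GGGCGG was found 4 times in the EZH2 window, 3 times in the SUZ12 window and 2 times in the UHRF1 window, and 65.0% of the windows of tested genes hold it. The EZH2, SUZ12, UHRF1 and DNMT1 windows have 46, 40, 36 and 30 CpG sites, against a median of 25 in the windows of tested genes. The 1 DNMT3B window in the table begins from a start 17467 bases inside the annotated gene, has 3 CpG sites and none of the E2F-type letters. These matches describe the letters of the reference and not the binding of a factor.

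Accessory PRC2 genes changed in both directions. Of 11 listed, 9 were tested, 4 rose, 1 fell and 4 did not pass, with a median log2 fold change of 0.32 against 0.09 for all genes. The share called was 55.6%, against 57.1% of all genes. MTF2, which helps recruit PRC2 to CpG islands, rose by 1.31 ± 0.22 (SE, limma adjusted p = 0.00104), and the histone-binding subunit gene RBBP7 rose by 0.77 ± 0.13. AEBP2, a cofactor that stabilises the complex, rose by 0.59 ± 0.15. LCOR, whose locus also encodes a PRC2 partner, rose by 0.63 ± 0.16, while its second probe gave 0.15 and was not called, and averaged over both probes it did not pass (0.39, limma adjusted p = 0.0677). JARID2, which defines the same PRC2 form as AEBP2, had a log2 fold change of -0.72 ± 0.15 (limma adjusted p = 0.00299). RBBP4 (0.32 ± 0.18), PHF19 (0.28 ± 0.12), PHF1 (-0.33 ± 0.15) and EZH1, the second catalytic subunit gene (-0.16 ± 0.16, above background on 2 ip1 arrays and 1 OM3 array), did not pass at their brightest probes. Dimmer probes differed from this for 2 of them: a PHF1 probe was called lower (-1.07, adjusted p over all probes = 0.00274) and a PHF19 probe higher (0.58, 0.00655), while the remaining kept probe of each was not called (-0.23 and -0.14). EZHIP did not pass the filter and EPOP had no named probe. The number lower was 2 with cyclic loess, without ip1 array 1 and when probes of a gene were averaged, which added PHF1 (-0.55, limma adjusted p = 0.0125).

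Genes of polycomb repressive complex 1 (PRC1), which ubiquitinates histone H2A and compacts chromatin, were mostly higher in OM3 or not called. Of 19 tested among 22 listed, 11 rose, 1 fell and 7 did not pass, and the median log2 fold change was 0.45. The 12 called genes are 63.2% of those tested, against 57.1% of all genes, and 57.9% were higher, against 31.2%. Like the others, this list was chosen with earlier results of these data known, so these shares are a description. BMI1, a core subunit that represses the CDKN2A locus, rose 4.33-fold, by 2.11 ± 0.14 (limma adjusted p = 4.18e-06). Its relatives PCGF5 (1.48 ± 0.18) and PCGF6 (1.36 ± 0.14) also rose, as did the chromodomain genes CBX6 (1.10 ± 0.13) and CBX2 (0.76 ± 0.12), the latter 2 chosen after their values were seen. PCGF2 rose by 0.45 ± 0.15, while PCGF3 (0.24 ± 0.22), PCGF1 (0.07 ± 0.13) and the chromodomain gene CBX7 (0.25 ± 0.16) did not pass. The member that fell was PHC2, a polyhomeotic subunit, at -1.16 ± 0.18, and its 2 other kept probes gave -0.81 (called) and -0.28 (not called). The counts depended on the setting: 7 rose with cyclic loess, without ip1 array 2 and without OM3 array 1, and 2 were lower without background correction, with a normexp offset of 50, with cyclic loess, in the authors' value table and among probes above background on all 6 arrays.

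Genes that oppose polycomb silencing were split. Of 6 tested among 10, 2 were called higher and 2 lower, with a median of -0.10. The called genes are 66.7% of those tested, against 57.1% of all genes. KDM6A, which removes the PRC2 mark, rose by 0.93 ± 0.13 (limma adjusted p = 0.000362) and KMT2C, a histone methyltransferase of enhancers, was called at its brightest probe (0.76 ± 0.13). The 3 other kept KMT2C probes were not called (0.0095, -0.098 and -0.13). ASXL1, a cofactor of the deubiquitinase that reverses PRC1 activity, was at -0.55 ± 0.17 and KMT2A at -0.52 ± 0.17 (limma adjusted p = 0.0204 and 0.0256). Of the 2 decreases, 1 was left without ip1 array 2, OM3 array 2 or OM3 array 3, and none without ip1 array 3 or OM3 array 1 or with no filter on dim probes. With cyclic loess 3 genes were lower. When probes of a gene were averaged, KMT2C did not pass (0.14, limma adjusted p = 0.417), which left 1 gene higher.

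Readers of methylated DNA also went both ways, with 2 of 7 tested genes higher, 1 lower and 4 not past the test, and a median of -0.09. The share called was 42.9%, against 57.1% of all genes. ZBTB33, which encodes the methyl-CpG binding factor Kaiso, rose by 0.97 ± 0.14 (limma adjusted p = 0.000410), and UHRF2, the relative of UHRF1, rose by 0.66 ± 0.16. ZBTB4, another zinc finger reader, was at -0.62 ± 0.17 (limma adjusted p = 0.0114). A second gene was lower with cyclic loess, when probes of a gene were averaged and without ip1 array 1. Among methylation cofactors and repair genes, 5 of 13 rose and 5 fell, with a median of 0.04. The called genes are 76.9% of those tested, against 57.1% of all genes. The number lower was 4 to 5 over the other settings and with 1 array left out. TDG, the glycosylase that cuts out TET products, rose by 1.49 ± 0.16 (limma adjusted p = 7.69e-05), and a second probe gave 1.00. GADD45A (-2.30 ± 0.13) and GADD45B (-1.28 ± 0.17), stress genes linked to DNA demethylation, fell. D2HGDH, which clears an inhibitor of TET enzymes, fell as well (-1.31 ± 0.17). HELLS, a chromatin remodeller needed for DNA methylation, rose by 0.91 ± 0.13, and USP7, a deubiquitinase that stabilises DNMT1 and UHRF1, rose by 0.84 ± 0.19; both were chosen after their values were seen. DNMT3L, a cofactor of the de novo enzymes, did not pass the filter.

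**Figure D4:**
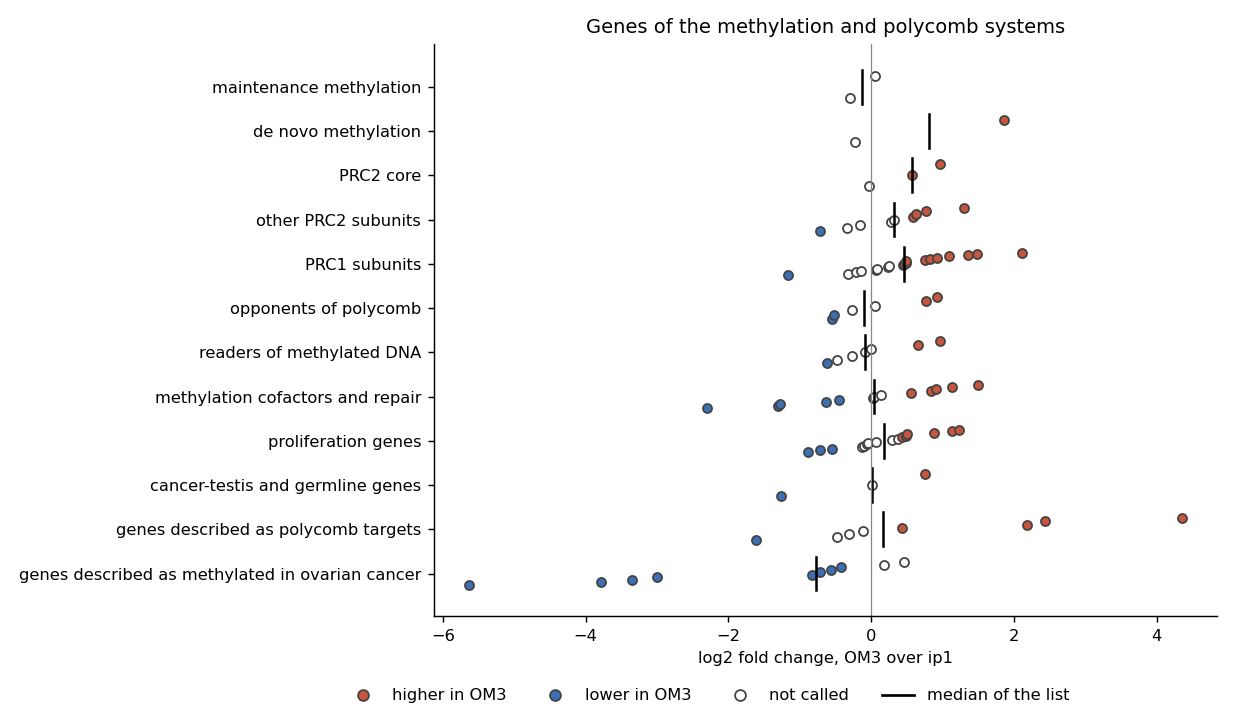
Log2 fold change of OM3 over ip1 (x axis) of each tested gene, by list; red was called higher, blue lower, open points were not called, and the black line is the median of the list. PRC1 subunits have 11 red and 1 blue point, and genes described as methylated in ovarian cancer have 8 blue and no red points. The values of CDKN2A, SFRP1 and MAGEB2 rest on background signal in 1 group. The lists were chosen with earlier results of these data known.

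Because several of the genes above vary with cell division, 16 proliferation genes were set beside them. Of these, 6 rose and 3 fell, with a median log2 fold change of 0.18. The share called was 56.25%, against 57.1% of all genes. The number higher was 5 to 8 over the other settings and 4 to 7 with 1 array left out, and the number lower was 2 to 3. RRM2 (1.23 ± 0.14), MCM6 (1.13 ± 0.13) and CCNA2 (0.88 ± 0.16) rose, all with limma adjusted p of at most 0.00150. E2F1 fell (-0.88 ± 0.21, above background on 1 of 3 OM3 arrays), as did MKI67 (-0.72 ± 0.17, chosen after its values were seen). The part of cell division in the EZH2 and SUZ12 values was not tested.

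Genes described as silenced by polycomb in other cells did not move one way. Of 8 tested among 13, 4 were higher, 1 was lower and 3 did not pass, with a median of 0.16. The share called was 62.5%, against 57.1% of all genes. The number higher was 3 to 4 over the other settings and with 1 array left out. CDKN2A, which encodes the cell cycle inhibitor p16 and whose signal in OM3 went against the SKOV3 label, did not exceed background on any ip1 array, and its OM3 signal was at least 11.2-fold higher, a bound that sets the OM3 mean against the lowest signal above background. RUNX3 rose by 2.44 ± 0.12 and SLIT2 by 2.19 ± 0.17, and the imprinted inhibitor gene CDKN1C fell (-1.61 ± 0.24, above background on 1 of 3 OM3 arrays). The limma adjusted p of RUNX3, SLIT2 and CDKN1C was at most 0.000516. CDKN2A passed the filter through OM3 alone, and without it 3 of 7 genes were higher and the median was -0.11. The number lower was 2 without ip1 array 1 or OM3 array 3 and 0 among probes above background on all 6 arrays.

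Genes described as promoter-methylated in ovarian cancer were mostly lower in OM3, with 8 of 10 tested lower, none higher by limma, at an adjusted or unadjusted p under 0.05, and 2 not called, and a median of -0.77. Of all genes 25.9% were lower, but the list was chosen with earlier results of these data known, so this comparison is a description. The number lower was 6 to 8 over the other settings and 7 to 8 with 1 array left out. The 6 were of 7 tested, among probes above background on all 6 arrays. TFPI2, a protease inhibitor, fell (-5.63 ± 0.15, 49.5-fold lower), the death-associated kinase gene DAPK1 fell (-3.78 ± 0.19, above background on 1 of 3 OM3 arrays), and the matrix gene SPARC fell (-3.35 ± 0.17). The Wnt antagonist gene SFRP1 was below background on the 3 OM3 arrays and at least 5.21-fold lower. The limma adjusted p of TFPI2, DAPK1 and SPARC was at most 6.55e-07. SFRP1 passed the filter through ip1 alone, and without it 7 of 9 genes were lower and the median was -0.71. Without OM3 array 3, 1 gene of the list was called higher. Methylation itself was not measured. In the list of cancer-testis and germline genes, which normal somatic cells keep methylated, 3 of 20 were tested, and 15 had probes that did not pass the filter. The tumour antigen gene PRAME rose by 0.75 ± 0.14 (limma adjusted p = 0.00212), MAGEB2 was below background on the 3 OM3 arrays and at least 1.19-fold lower, having passed the filter through ip1 alone, and DDX43 (0.02 ± 0.23) did not pass. With no filter on dim probes 2 genes were higher, and among probes above background on all 6 arrays none was lower.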

How the data were processed

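The samples were 6 arrays in 2 groups, 3 of ip1 and 3 of OM3. The authors deposited linear probe intensity values, made with BeadStudio per the submitters' processing notes, and no control probes or detection p-values are in this table. Of its columns, 3 match no sample described here and were not used. The authors also deposited log2 values, whose 6 columns share 1 distribution (median 7.00), as quantile normalization gives, though no label or header records that step. They served as an alternative. Median signals were 131 to 142, and between 38.3% and 41.9% of probes per array exceeded background. The number of arrays limits the precision, and log2 fold changes had a median standard error of 0.16.

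From the intensities, limma 3.58.1 in R 4.3.3 fitted normexp to all signals of each array (offset 16), followed by quantile normalization and log2. Small changes of dim genes are shrunk by the offset. Background was a normal curve centred on the mode of an array's log2 signals (kernel density, bandwidth 0.02), its SD taken from signals under the mode, and a probe exceeded it at one-sided p of 0.05. Probes above background on at least 3 arrays were kept, 19011 in all. Gene symbols came from the platform annotation, updated by gene identifier to RefSeq (GRCh38.p14): 28094 probes had 1 gene, 13 several and 20692 none. For each gene the brightest kept probe was used, and 40 of the 126 listed genes tested had several kept probes, none with calls in opposite directions. OM3 and ip1 were compared with lmFit and eBayes, two-sided, adjusted over the 11732 genes, or over all kept probes where a single probe is given. Slide and position are not given in the sources used here, so no batch could be tested.

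Members and gene lists were chosen with earlier results of these data known. Named were all members with every probe and all accessory PRC2 genes. Of each other list, up to 4 genes with the largest change among those called without overlap were named. Outside this rule stand PCGF1, PCGF2, PCGF3, CBX7, DNMT3L, DDX43, KRT8, KRT18, ERBB2 and EPCAM. The markers below background on all arrays and the genes said to be chosen after their values were seen also stand outside it. All of these were named with their values known. Alternatives were other background corrections, scalings, filters and probe summaries, the authors' values, and each array left out.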

Additional observations from a re-analysis of the deposited data

How the results depend on the processing

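DNMT3B, EZH2 and SUZ12 were called higher under all 8 other settings and with each array left out in turn: from 1.42 to 1.91, from 0.81 to 1.08 and from 0.48 to 0.68 on the log2 scale over the settings, and from 1.73 to 1.92, 0.86 to 1.04 and 0.50 to 0.64 with 1 array left out. UHRF1 passed at -0.30 without background correction, at -0.37 with cyclic loess and at -0.29 in the authors' values, which made 1 member lower in place of 0, and it ranged from -0.39 to -0.25 with 1 array left out (0 to 1 members lower). Values that were not called turned sign: DNMT1 to -0.040 with cyclic loess, DNMT3A to 0.091 when probes of a gene were averaged, and EED to 0.14 with median centring, and with 1 array left out DNMT3A ran from -0.57 to 0.12 and EED from -0.11 to 0.062. Cyclic loess gave 7 higher and 2 lower PRC1 genes, 2 lower accessory PRC2 genes, 3 lower opponents and 2 lower readers. The PRC1 list also had 2 lower without background correction, with offset 50, in the authors' values and above background on all 6 arrays. Averaging the probes of a gene gave 2 lower accessory PRC2 genes, 2 lower readers and 1 higher opponent. A filter that asked for signal over background on every array gave 0 lower polycomb targets and 0 lower cancer-testis genes, and no filter gave 0 lower opponents and 2 higher cancer-testis genes. With 1 array left out, 7 to 10 PRC1 genes were higher, 1 to 2 accessory PRC2 genes, readers and polycomb targets were lower, 0 to 2 opponents were lower and 0 to 1 genes of the methylated list were higher. Over all genes, 3657 were higher and 3043 lower, and with cyclic loess 3077 and 3491, so that 46.8% of the called genes were higher in place of 54.6%; with probes above background on all 6 arrays it was 60.6%. The causes were not tested. No paired analysis was possible because the labels share no number: the ip1 samples are 1 to 3 and the OM3 samples 4 to 6. The names of the signal columns carry no sample, but all 6 columns of the authors' values had rank correlation 1 with a signal column of their own group. Signal over background limits TET1, TET2 and DNMT3A.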
